A study of Mus musculus with 8 samples.

Results

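Peaks of unusual width were taken from chromatin immunoprecipitation followed by sequencing (ChIP-seq) of 3 proteins in mouse embryonic fibroblasts (MEF). A wide region was defined as any interval of more than 500 bp in the peak list of HMGA2, γ-H2AX or ATM, with overlapping intervals merged, and the members were thus selected on the width of their own peaks. There were 435 wide regions among the 386343 merged peak regions of the 3 lists. They came from 187 of the 152834 HMGA2 peaks (0.122%), 114 of the 124947 γ-H2AX peaks (0.0912%) and 184 of the 119570 ATM peaks (0.154%), and covered 382.3 kb in all. All 3 lists were from Hmga2 wild-type (wt) MEF of strain C57BL/6, of embryo stage E15.5, used at passages 2 to 4. The antibodies were against HMGA2, against γ-H2AX, the phosphorylated histone that the labels call H2AXS139ph, and against ATM. Each antibody and genotype had 1 library, so no value has a replicate error and no comparison was tested. Intervals in parentheses are 95% Wilson intervals of a share. They cover counting error only and treat regions as independent, which neighbouring regions are not. The libraries of Hmga2 knockout MEF and both input libraries were not analysed here, and the fibroblast label could not be checked against markers in peak lists.

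HMGA2 is a chromatin protein that binds the minor groove of AT-rich DNA through its AT-hooks. ATM is a kinase activated by DNA breaks, and it phosphorylates H2AX over long stretches of chromatin around a break. A peak caller reports a wide interval where significant windows run together. In tandem arrays and other multicopy sequence, reads of several near-identical copies can be placed at the same reference position, and a copy missing from the assembly adds its reads to those that are present. The score of a peak was made by the authors and equals -10 log10 p, with 20 at their threshold. Scores rank peaks within a list and are not read as amounts of binding.

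Reference sequences show how alike the copies can be that lie in or beside wide regions. Promoter windows run from 250 bp before to 50 bp after a gene's start and are from RefSeq on GRCm38.p6, the assembly of mm10, in the direction of the gene. The first pair is of Sprr2a1 (chr3:92215585-92215884, plus strand) and Sprr2a3 (chr3:92285054-92285353, plus strand), genes of small proline-rich proteins of the cornified envelope at either end of a cluster of 12 wide regions. Capitals mark bases outside the stretch the windows share.

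Sprr2a1: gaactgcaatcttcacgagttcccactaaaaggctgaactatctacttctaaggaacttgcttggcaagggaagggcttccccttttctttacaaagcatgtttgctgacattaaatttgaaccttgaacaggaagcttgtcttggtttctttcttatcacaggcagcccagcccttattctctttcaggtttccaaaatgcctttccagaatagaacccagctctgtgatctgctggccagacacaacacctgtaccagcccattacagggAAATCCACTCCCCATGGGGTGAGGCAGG
Sprr2a3: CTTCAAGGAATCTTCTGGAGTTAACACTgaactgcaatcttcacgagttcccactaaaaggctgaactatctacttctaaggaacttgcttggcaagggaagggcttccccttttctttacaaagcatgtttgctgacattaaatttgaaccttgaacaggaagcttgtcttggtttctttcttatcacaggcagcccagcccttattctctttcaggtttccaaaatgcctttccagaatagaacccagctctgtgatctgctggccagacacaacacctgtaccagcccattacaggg

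Over the 272 bases that the windows share there was no substitution. The window of Sprr2a2, between them at chr3:92250397-92250696, was identical to that of Sprr2a1 over all 300 bases. The second pair is of A530032D15Rik (chr1:85109804-85110103, minus strand), in the second largest cluster, and Sp140 (chr1:85600453-85600752, plus strand), which encodes a nuclear body protein of the Sp100 family and lies in another cluster. Capitals mark the ends outside the shared stretch and the base that differs within it.

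A530032D15Rik: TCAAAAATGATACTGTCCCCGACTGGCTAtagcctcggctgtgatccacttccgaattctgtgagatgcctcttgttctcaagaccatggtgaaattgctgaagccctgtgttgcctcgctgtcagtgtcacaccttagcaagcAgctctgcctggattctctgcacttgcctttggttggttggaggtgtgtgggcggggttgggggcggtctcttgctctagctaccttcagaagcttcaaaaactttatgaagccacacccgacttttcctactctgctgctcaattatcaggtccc
Sp140: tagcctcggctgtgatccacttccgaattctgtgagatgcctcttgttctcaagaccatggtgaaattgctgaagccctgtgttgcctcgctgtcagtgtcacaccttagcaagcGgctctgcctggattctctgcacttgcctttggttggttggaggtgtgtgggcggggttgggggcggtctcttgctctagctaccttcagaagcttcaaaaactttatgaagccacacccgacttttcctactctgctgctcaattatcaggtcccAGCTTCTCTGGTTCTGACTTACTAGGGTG

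Of 271 aligned bases, 270 were identical. Both windows lie wholly inside wide regions of different antibodies. That of A530032D15Rik is in chr1:85109517-85110511, wide in γ-H2AX (score 40.02, beside a narrower ATM peak of 32.9), and that of Sp140 in chr1:85597464-85601174, wide in ATM (3711 bp, 26.2) with no peak of the other lists. The next sequences are ones that wide γ-H2AX regions cover, with the covered bases in capitals: the promoter window of Gm36327 (chr6:47675332-47675631, plus strand), which has exact copies in its cluster, that of Noct (chr3:51224197-51224496, plus strand), which lies apart from other wide regions, and the hairpin of Mir6546 (chr1:171064591-171064652, minus strand), a microRNA gene among transfer RNA (tRNA) genes.

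Gm36327: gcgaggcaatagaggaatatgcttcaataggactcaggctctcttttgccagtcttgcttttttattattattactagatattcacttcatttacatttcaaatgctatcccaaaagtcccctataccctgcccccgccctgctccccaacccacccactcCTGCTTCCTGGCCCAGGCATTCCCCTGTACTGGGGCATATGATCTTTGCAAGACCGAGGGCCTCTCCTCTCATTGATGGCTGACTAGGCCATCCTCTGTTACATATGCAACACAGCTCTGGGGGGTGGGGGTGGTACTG
Noct: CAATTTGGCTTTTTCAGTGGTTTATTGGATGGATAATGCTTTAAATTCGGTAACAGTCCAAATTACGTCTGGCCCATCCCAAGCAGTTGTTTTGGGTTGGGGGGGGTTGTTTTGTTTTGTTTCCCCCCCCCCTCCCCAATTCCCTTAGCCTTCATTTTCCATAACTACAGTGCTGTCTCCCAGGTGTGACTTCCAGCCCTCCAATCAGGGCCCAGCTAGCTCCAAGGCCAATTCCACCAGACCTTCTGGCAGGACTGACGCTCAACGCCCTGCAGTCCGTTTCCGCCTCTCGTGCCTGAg
Mir6546: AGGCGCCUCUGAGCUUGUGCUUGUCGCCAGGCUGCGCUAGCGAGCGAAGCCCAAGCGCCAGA

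Wide γ-H2AX regions thus covered the later part of the Gm36327 window, 299 of the 300 bases of that of Noct and the whole hairpin of 62 bases. The Gm36327 window was identical over 300 bases to those of Gm40367 (chr6:47662342-47662641) and Gm40364 (chr6:47679657-47679956), so reads from these copies cannot be assigned to any of them by this sequence alone.

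The wide regions had a median width of 691 bp, and 84 exceeded 1000 bp. The widest was an ATM region of 6567 bp within Sfi1, which encodes a centrin-binding protein of the centrosome. Near the threshold the rule separates like from like. The HMGA2 intervals just inside it were of 503 bp at Gm40985, 505 bp at 1700019L22Rik and 505 bp on the X chromosome at 94979390 to 94979894, and those just outside were of 499, 498 and 497 bp. For γ-H2AX the nearest inside were of 503 bp at Gm51573, 504 and 510 bp, and the nearest outside of 498, 496 and 495 bp, the first of them in the same chromosome 6 cluster as Gm36327. For ATM they were of 502 bp at Zc3h7a and 505 bp at 2 sites inside, and of 500 bp at A530032D15Rik and 496 bp at 2 sites outside.

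Many wide calls had low scores. Scores under 30 were held by 36.4% of the wide HMGA2 intervals (29.8 to 43.5), 50.9% of those of γ-H2AX (41.8 to 59.9) and 54.3% of those of ATM (47.1 to 61.4). Among narrower peaks of the same lists the shares were 88.5%, 89.7% and 89.9%. Scores of 50 or more were held by 61 wide HMGA2 intervals, 10 of γ-H2AX and 30 of ATM, which made up 7.15%, 2.39% and 6.397% of all peaks of that height in their lists. These values describe what the width rule selected, since width and score come from the same reads. The scatter of width against score shows wide calls of every list reaching down to the threshold.

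**Figure D1:**
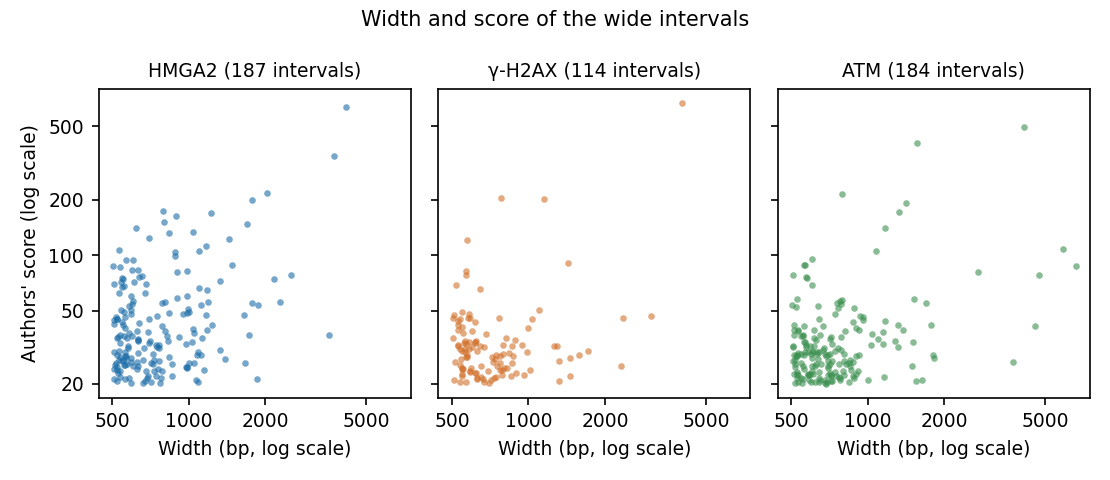
Width in bp (log scale, horizontal) and authors' score (log scale, vertical) of each wide interval, a point per interval, in the HMGA2 (187), γ-H2AX (114) and ATM (184) lists. Most points lie between 500 and 1000 bp and under a score of 50, and a chromosome 14 region of about 4 kb has the highest score in each list.

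The libraries shared few of the wide calls themselves, but they shared more of them than of ordinary peaks. Of the 435 regions, 166 were wide in HMGA2 alone, 148 in ATM alone and 79 in γ-H2AX alone. A further 21 were wide in γ-H2AX and ATM, 7 in HMGA2 and ATM, 7 in HMGA2 and γ-H2AX, and 7 in all 3 lists. Together 42 regions were wide in at least 2 lists, 9.66% (7.22 to 12.8). With peaks of any width counted, 114 regions had a peak of at least 2 lists, 26.2% (22.3 to 30.5), and 13 of all 3 lists, 2.99% (1.75 to 5.05). Among narrower merged regions these shares were 2.73% and 0.0557%. A wide interval can meet more peaks by its size alone, so the same was counted in the central 200 bp of every peak. Wide intervals also scored higher than narrower peaks, and neither comparison was matched on score.

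In the central 200 bp, wide HMGA2 intervals were touched by a γ-H2AX peak at 19 of 187, 10.2% (6.60 to 15.3), against 2.82% of narrower HMGA2 peaks. An ATM peak touched 25 of them, 13.4% (9.22 to 19.0), against 2.55%. Wide calls of HMGA2 thus met the other antibodies' peaks above the level of ordinary HMGA2 peaks, and about as often with ATM as with γ-H2AX given these intervals. Wide γ-H2AX intervals were touched by HMGA2 at 16 of 114, 14.0% (8.83 to 21.6), against 3.48%, and by ATM at 37, 32.5% (24.6 to 41.5), against 2.82%. Wide ATM intervals were touched by HMGA2 at 26 of 184, 14.1% (9.83 to 19.9), against 3.28%, and by γ-H2AX at 34, 18.5% (13.5 to 24.7), against 2.94%. All 6 shares lay above those of narrower peaks, with intervals that did not reach them, and that of γ-H2AX with ATM was the largest of the 6. Which control the peak calls used is not given in the sources used here, and background common to the libraries cannot be told apart from shared binding.

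**Figure D2:**
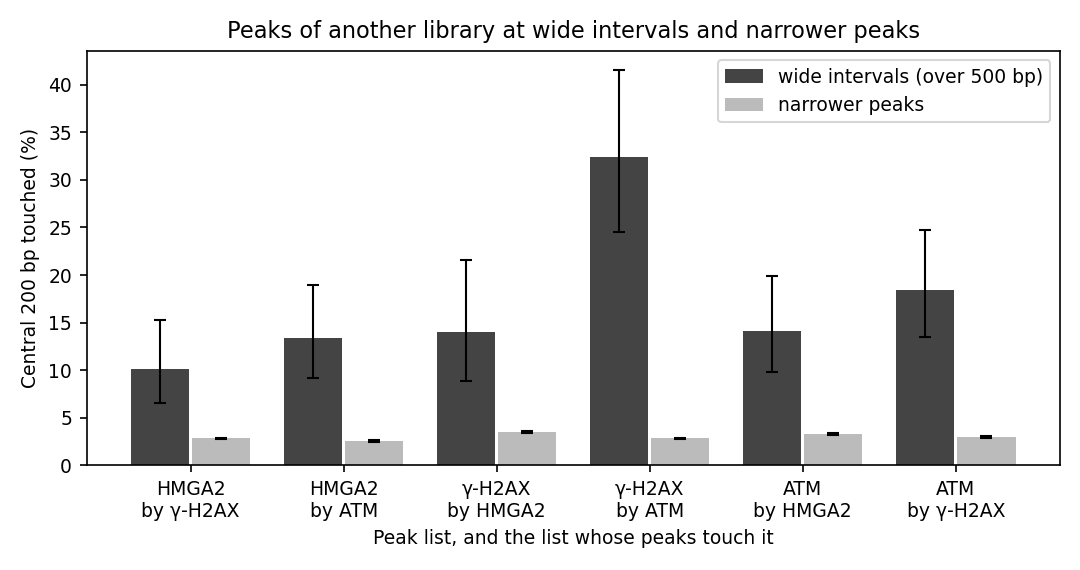
Share of intervals (%) whose central 200 bp touch a peak of another list, for wide intervals (dark) and narrower peaks (light) of each list, with 95% Wilson intervals as bars. Wide intervals stand above narrower peaks in all 6 comparisons, from 10.2% against 2.82% (HMGA2 by γ-H2AX) to 32.5% against 2.82% (γ-H2AX by ATM).

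Regions wide in all 3 lists lay mostly outside genes. The strongest, at chr14:19415574-19419721, lay 10481 bp from the pseudogene Gm9637 was the top-scoring interval of each list and scored 641 in the HMGA2 list, 670 in that of γ-H2AX and 494 in that of ATM. Its common part made up 97.3% of its length. On chromosome 2, chr2:98662115-98663010 scored 164, 204 and 214 in the same order and chr2:98663532-98664191 scored 73.9, 81.9 and 75.2. Both belong to a group of 4 wide regions within 5343 bp and lie over 35 kb from the nearest gene, Gm33780. Of the others in that group, chr2:98664759-98665313 was wide in γ-H2AX and ATM, and chr2:98666226-98667457 in HMGA2 (41.6) and γ-H2AX (201).

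The remaining regions wide in all 3 lists had lower scores. A region at chr10:58239040-58239776 in Gm9919 lay beside Duxf3, a double-homeobox gene of the Dux array active in early embryos, and scored 29.1 (HMGA2), 20.6 (γ-H2AX) and 29.1 (ATM). In the array of zinc-finger genes on chromosome 4, chr4:147403930-147405334 scored 28.7, 20.96 and 20.98, and chr4:147409740-147410644 scored 25.1, 28.5 and 31.9. At chrX:94968491-94969765 (50.7, 30.9 and 20.4) the ATM and γ-H2AX intervals each touched that of HMGA2 and had no base in common, so the region was joined by merging alone.

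Bounds were alike at some shared regions and not at others. Over the 42 regions wide in at least 2 lists, the median distance between the starts was 107.5 bp and between the ends 69.5 bp, and both bounds fell within 100 bp at 12 regions. The common part was at least 80% of the region at 17 and under 50% at 10. Close bounds in γ-H2AX and ATM were found at chr4:118547187-118548775 in the long non-coding RNA gene Gm40237, with the same start in both and scores of 28.6 and 409. They were also found at chr11:109011638-109012205 in Gm36876 (24.3 and 76.6) and at chr10:3115938-3117262, 543 bp from Gm3318 (32.0 and 172). In HMGA2 and γ-H2AX, chr9:35305140-35305716 in Gm33838 had bounds within 10 bp and scores of 94.3 and 121, and carried a narrower ATM peak of 125. At the other extreme, chrX:170015391-170018955 in Erdr1 had starts 1393 bp apart in HMGA2 (74.1) and γ-H2AX (25.2).

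Most of the 21 regions wide in γ-H2AX and ATM lay in pseudogenes, in long non-coding RNA genes or outside genes. Some lay in protein-coding genes, which 42.2% of narrower peaks also touched, so this is not a trait of shared regions. Smo, the signal transducer of the Hedgehog pathway, held chr6:29747862-29748808 (26.1 for γ-H2AX and 88.4 for the wide ATM interval), and Cmss1 and Filip1l shared chr16:57391022-57391786 (45.8 and 88.0). Ppp1r9a, which encodes the actin-binding protein neurabin, held chr6:4923711-4924275 (34.3 and 36.8). Mdga2, a cell adhesion gene, held a region wide in HMGA2 (36.1) and γ-H2AX (22.4) at chr12:67059053-67059966, with no ATM peak. The long non-coding RNA gene 2700054A10Rik had chr17:13550655-13553256 (22.1 for γ-H2AX, 193 for ATM) and the pseudogene Gm20590 had chr13:74528444-74529749 (32.3 and 105).

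Most wide regions lay in clusters. When regions within 100 kb of each other were joined, 361 of the 435 (83.0%, 79.2 to 86.2) fell into 41 clusters and 74 stood alone. The 14 clusters of 10 or more held 259 regions (59.5%) in 2.54 Mb, 0.0994% of the 2557 Mb spanned by peaks. The median distance to the nearest other wide region was 3700 bp. Even spacing, which is wider than random placement gives, would put 435 regions 5.88 Mb apart. Some neighbours nearly touched, such as chrX:126776507-126777675 and chrX:126777685-126778686. Chromosomes 8, X, 4 and 1 held 288 regions (66.2%) and 24.2% of all peaks. The Y chromosome held 15 (3.45%) and 0.0936% of peaks, and chromosomes 7 and 15 held 1 each.

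Clusters were shared by the libraries more than single regions were. Wide regions of all 3 lists were found in 19 of the 41 clusters, of 2 lists in 16 and of 1 list in 6, and 13 of the 14 clusters of 10 or more had all 3. Within clusters, however, a peak of at least 2 lists was found at 86 of 361 regions, 23.8% (19.7 to 28.5), and at 28 of the 74 regions alone, 37.8% (27.7 to 49.2). In the same clusters the lists therefore often called different intervals, as the maps of single clusters show. Larger clusters have more chances to hold all 3 lists.

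**Figure D3:**
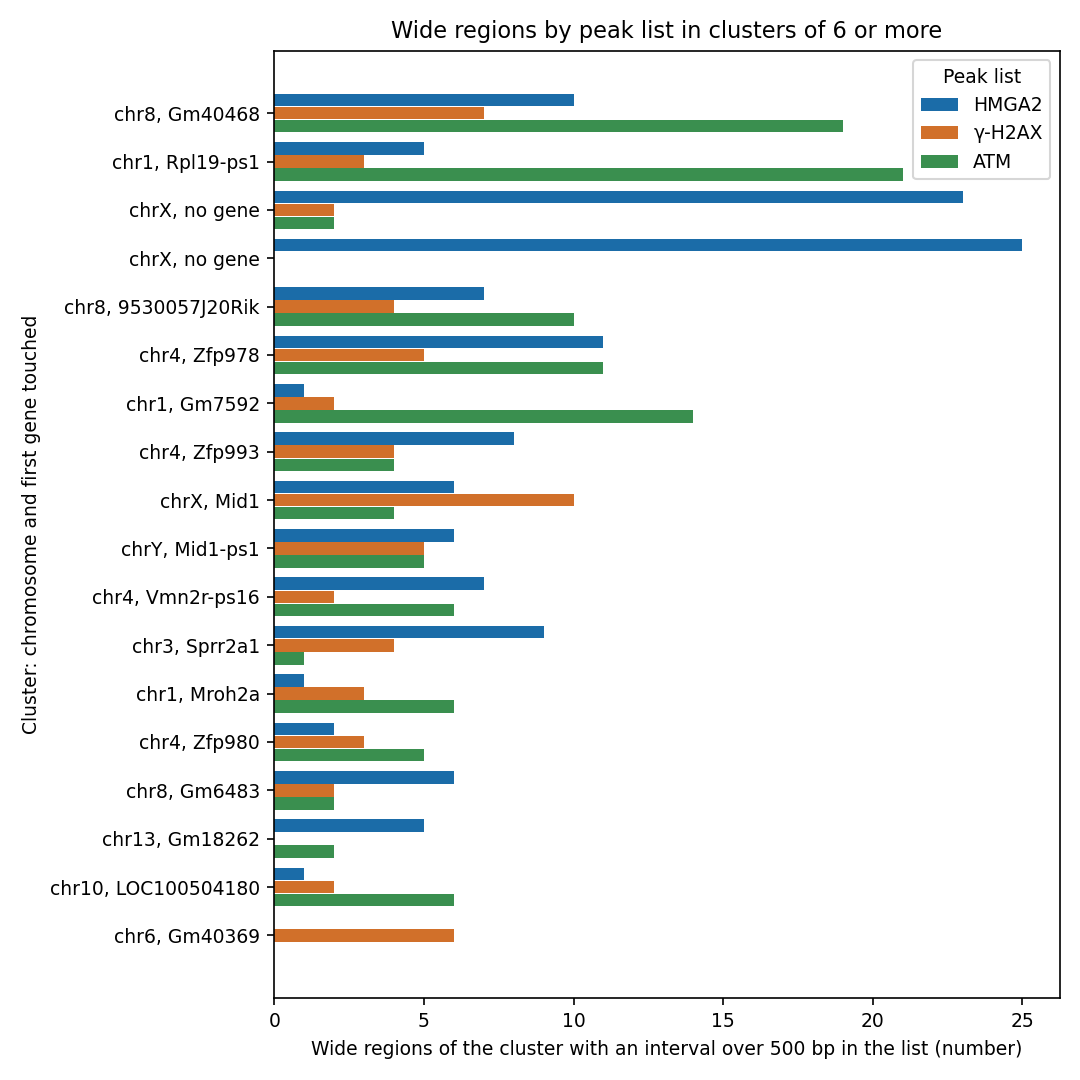
Number of wide regions (horizontal) with an interval over 500 bp in the HMGA2, γ-H2AX and ATM lists, for each cluster of 6 or more regions, named by chromosome and by the first gene touched. All 3 lists contribute to most clusters, while an X-chromosomal cluster without genes has 25 HMGA2 regions and no other, and the chromosome 6 cluster at Gm40369 has 6 of γ-H2AX and no other.

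The largest cluster was on chromosome 8 (chr8:20259068-20695935), with 36 wide regions from 505 to 1371 bp, of which 10 were wide in HMGA2, 7 in γ-H2AX and 19 in ATM. All 13 genes it touched carry predicted or clone-based names, among them Gm15319, Gm21119 and the pseudogenes 6820431F20Rik and 2610005L07Rik. Its widest region was an ATM interval at chr8:20336962-20338332 in Gm15319, with a score of 39.3. The promoter windows of Gm15319 and Gm21119 were each identical over 300 bases to that of 4930467E23Rik, which lies at chr8:19729326-19729625 in a neighbouring cluster of 9 and holds a region wide in γ-H2AX and ATM (27.9 and 33.1). A further cluster between them (chr8:19910416-20131592) had 20 regions, 7 wide in HMGA2, 4 in γ-H2AX and 10 in ATM, and touched 9530057J20Rik, Gm20778 and 2 other predicted genes.

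On chromosome 1, neighbouring clusters were mostly of ATM. The first (chr1:84991847-85343270) held 27 regions, 21 wide in ATM, 5 in HMGA2 and 3 in γ-H2AX, and touched A530032D15Rik, C130026I21Rik and Gm7609. Its widest region, chr1:85341398-85343270 in Gm7592 and Gm7281, was wide in HMGA2 (27.2) and ATM (54.9). The second (chr1:85461120-85631845) held 16 regions, 14 wide in ATM, 2 in γ-H2AX and 1 in HMGA2, over Sp110 and Sp140, genes of nuclear body proteins induced by interferon. ATM peaks covered 7.39% of the first cluster and 11.6% of the second, against 2.40% and 1.44% for HMGA2. These coverages include the wide intervals that define the clusters, so they follow in part from the width rule. Narrower ATM peaks numbered 29 in the first cluster, where the mean density of the list gives 16.41, and 18 in the second (7.972). Narrower HMGA2 peaks numbered 12 (20.98) and 6 (10.19), and those of γ-H2AX 17 (17.16) and 7 (8.336). The windows of A530032D15Rik and C130026I21Rik had no substitution over 279 aligned bases.

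The 4 largest clusters of chromosome 4 touched zinc-finger genes together with predicted genes and pseudogenes. At chr4:147357600-147649007, over Zfp978, Zfp982, Zfp985 and Zfp979, there were 19 regions, 11 wide in HMGA2, 5 in γ-H2AX and 11 in ATM, and 8 of them had a peak of at least 2 lists. The highest HMGA2 peak of this cluster scored 85.8. At chr4:146971234-147255494, over Zfp993, Zfp991 and Rex2, there were 15 regions, 8 wide in HMGA2 and 4 in each of the other lists. That cluster also held 41 narrower HMGA2 peaks, 34 of ATM and 15 of γ-H2AX, where the mean density of those lists gives 17.0, 13.3 and 13.9, so that γ-H2AX was near its mean. Clusters of 14 at Zfp992 and Zfp981 and of 10 at Zfp980 were likewise wide in all 3 lists.

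HMGA2 had X-chromosomal clusters of its own, outside genes. At chrX:126688738-126778686, 33.8 kb from the nearest gene, 4932411N23Rik, all 25 wide regions were of HMGA2. HMGA2 peaks covered 33.7% of its length, γ-H2AX peaks 0.458% and ATM peaks 0.958%, with the wide intervals that define it included. Narrower HMGA2 peaks numbered 10, where the mean density gives 5.37. The scores of its wide intervals ran from 30.3 to 346 for HMGA2, and the single γ-H2AX peak in the cluster scored 25.3 and the highest of 3 ATM peaks 36.2. The top interval, chrX:126770170-126773894, was 3725 bp wide and second only to chromosome 14 in the HMGA2 list. Beside it, chrX:126774511-126776283 scored 201 and chrX:126759306-126760097 scored 174.

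A similar cluster at chrX:94875028-94979894, 17.5 kb from Gm371, had 25 regions, 23 wide in HMGA2 and 2 in each of the other lists. HMGA2 peaks covered 25.7% of it, γ-H2AX peaks 2.08% and ATM peaks 1.29%, again with the wide intervals included. Narrower HMGA2 peaks numbered 6, near the 6.261 that the mean density gives. HMGA2 scores were lower, up to 77.6. Its widest, chrX:94904791-94907323 of 2533 bp and chrX:94913941-94916227 of 2287 bp, were among the 5 widest HMGA2 intervals. At chrX:123047277-123064431, 39.1 kb from Cldn34c1, all 4 wide regions were again of HMGA2, with 13 narrower HMGA2 peaks where the mean density gives 1.02, 2 of γ-H2AX (0.838) and 1 of ATM (0.801). Whether input DNA is raised at these 3 places was not tested.

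A cluster 853778 bp before the last peak of the X chromosome had more wide regions of γ-H2AX than of the other lists. At chrX:169973285-170022596, over Mid1, a microtubule-associated ubiquitin ligase that spans the pseudoautosomal boundary in this strain, G530011O06Rik and the RefSeq pseudogene Erdr1, there were 15 regions, 10 wide in γ-H2AX, 6 in HMGA2 and 4 in ATM. Peaks of γ-H2AX covered 22.2% of this cluster, of HMGA2 15.8% and of ATM 8.58%, with the wide intervals that define it included. The only narrower peaks there were 2 of ATM. The highest score was that of HMGA2 (88.5), above those of γ-H2AX (50.4) and ATM (47.9). The region chrX:169980875-169982604 in Mid1 was wide in HMGA2 (27.1) and γ-H2AX (30.3), and its γ-H2AX interval of 1721 bp was among the 5 widest of that list. Also in Mid1, the γ-H2AX region chrX:169985922-169987017 scored 50.4 with no peak of the other lists, and between Mid1 and Erdr1 3 regions were wide in γ-H2AX and ATM, such as chrX:170006769-170007510 (31.8 and 47.9). A stretch of 650.6 kb without a peak of any list begins at the end of this cluster, and all 15 regions lie within 50 kb of it.

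The Y chromosome had its 15 wide regions in a single cluster (chrY:90749447-90835471) around Mid1-ps1, a pseudogene related to Mid1, and Gm33272. A promoter window of G530011O06Rik lies in this cluster (chrY:90755001-90755300) as well as in the X-chromosomal cluster at Mid1. How alike the X and Y sequences are was not tested, so these clusters and their list patterns are not taken as independent. They were wide in HMGA2 at 6, in γ-H2AX at 5 and in ATM at 5. The highest HMGA2 interval, chrY:90791468-90793492, scored 217, and its neighbour chrY:90793666-90797240 was 3575 bp wide with a score of 36.9. The widest γ-H2AX region there, chrY:90787666-90790020, scored 45.4, and neither of the other lists had a peak in it. The cluster ended 8508 bp before the last peak of the chromosome.

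In 2 clusters the wide regions were of γ-H2AX alone, with narrower peaks of other lists among them. On chromosome 6 (chr6:47656539-47773218), 6 wide γ-H2AX regions with scores from 24.9 to 45.0 lay in an array of predicted genes, among them Gm40369, Gm40367 and Gm36327, next to Rn4.5s, the gene of the 4.5S RNA of rodents. Narrower peaks of all 3 lists were below their mean density there. HMGA2 had no peak where the mean gives 6.97, ATM had 2 where it gives 5.45, and γ-H2AX had 3 where it gives 5.70. On chromosome 1 (chr1:171064204-171082363), 4 wide γ-H2AX regions with scores from 32.1 to 49.3 lay over tRNA genes such as n-TEctc5, n-TDgtc3 and n-TGgcc12, over Mir6546 and over one end of Fcgr3, an Fc receptor gene. Narrower ATM peaks touched 3 of the 4 regions, with scores of 26.9, 27.3 and 38.9. The whole cluster held 7 narrower ATM peaks and 6 of γ-H2AX, where the mean density gives 0.848 and 0.887, and 2 of HMGA2, where it gives 1.08. Peaks of γ-H2AX touched 9 of its 15 tRNA genes, those of ATM 3 and those of HMGA2 none. The wide γ-H2AX intervals that define the cluster touched 5 of these genes. The lead of γ-H2AX here, and over tRNA genes elsewhere, thus follows in part from the width rule and is a description only. Of the 415 tRNA genes elsewhere, γ-H2AX peaks touched 10 (2.41%, 1.31 to 4.38), HMGA2 peaks 2 (0.482%, 0.132 to 1.74) and ATM peaks none (an upper bound of 0.917%). These counts were made after the cluster had been seen. For γ-H2AX the shares of other small RNA genes were 3.08% of 65 ribosomal RNA genes (0.848 to 10.5) and 1.49% of 1004 small nuclear RNA genes (0.907 to 2.45), with intervals that overlap that of the tRNA genes elsewhere.

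ATM had the widest regions. Within 67294 bp of chromosome 11 (chr11:3123505-3190798), 5 wide ATM regions lay over Pisd-ps1 and Sfi1, and neither HMGA2 nor γ-H2AX had a peak there, wide or narrow. In Sfi1 the ATM intervals were 4694, 4563 and 6567 bp wide, with scores of 78.3, 41.1 and 87.0, and in Pisd-ps1 the wider was of 2706 bp with 81.1. The cluster begins 11008 bp from the first peak of the chromosome. The second widest ATM region, chr17:39842991-39848838, was of 5848 bp with a score of 108 and lay over Rn18s-rs5, a pseudogene related to the 18S ribosomal RNA, and AY036118. No peak of the other lists touched it. At the Dux array (chr10:58221636-58239776), ATM was wide in all 6 regions of the cluster, γ-H2AX in 2 and HMGA2 in 1.

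**Figure D4:**
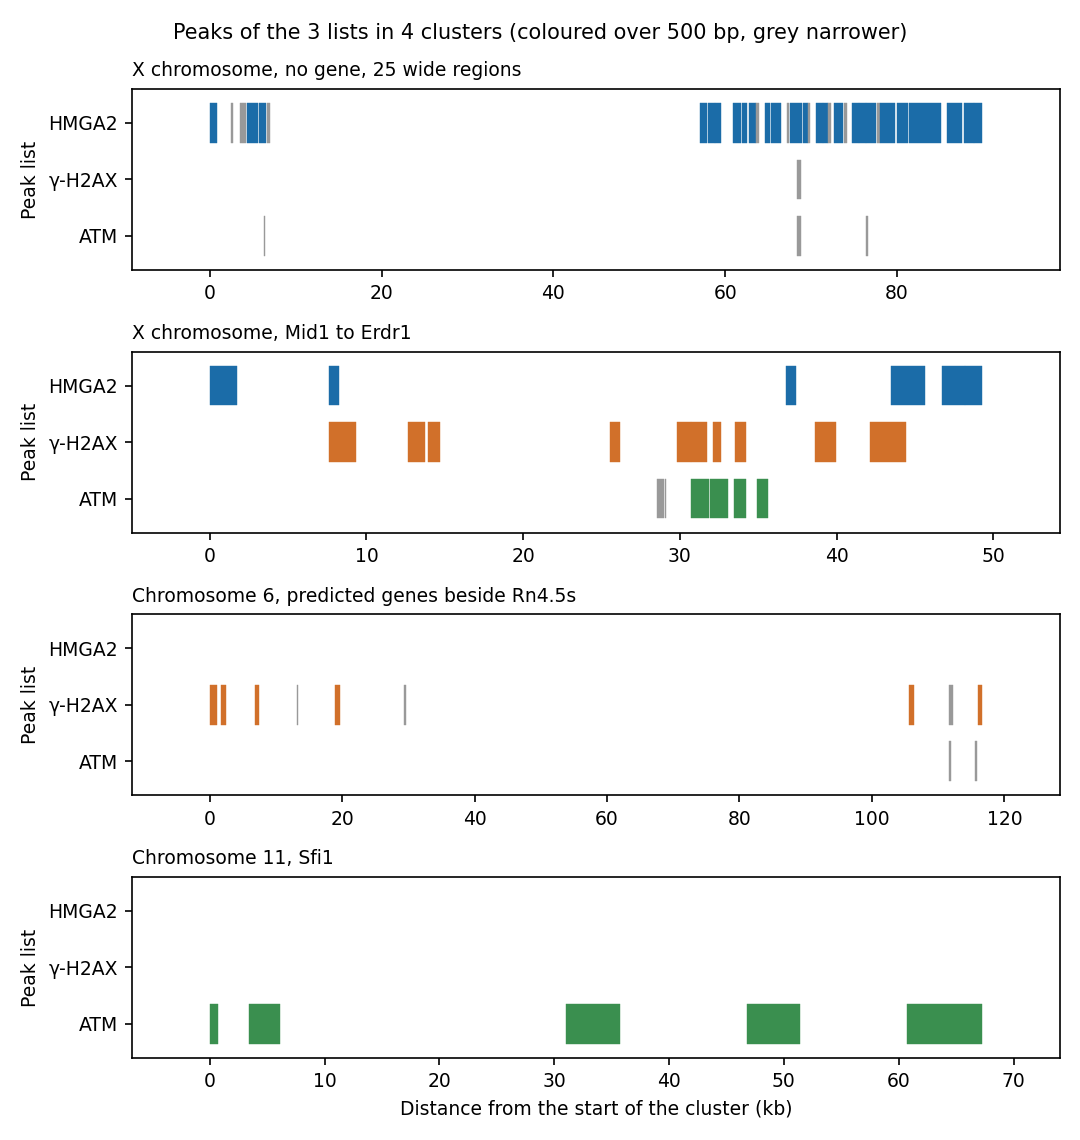
Peaks of the HMGA2, γ-H2AX and ATM lists along 4 clusters, in kb from the start of each cluster, with intervals over 500 bp in colour and narrower peaks in grey. The gene-free X-chromosomal cluster has wide intervals of HMGA2 alone, the Mid1 to Erdr1 cluster has different intervals of all 3 lists, the chromosome 6 cluster has γ-H2AX intervals and 2 narrower ATM peaks, and the Sfi1 cluster has ATM alone.

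Other clusters were smaller or mixed. At Mroh2a, Hjurp, the chaperone that loads the centromeric histone CENP-A, and Trpm8, a cold-sensing ion channel, 10 regions were wide in ATM at 6, in γ-H2AX at 3 and in HMGA2 at 1. The second widest γ-H2AX interval, chr1:88276182-88279228 in Hjurp, was of 3047 bp with a score of 46.8. The Sprr2a cluster (chr3:92214796-92285127) had 12 regions, 9 wide in HMGA2, 4 in γ-H2AX and 1 in ATM. Its strongest, chr3:92258544-92259584, scored 134 in HMGA2, and chr3:92284565-92285127, a γ-H2AX region of 29.9, reaches into the Sprr2a3 window printed above.

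Among the 74 regions alone, 27 were wide in HMGA2 alone, 20 in ATM alone and 16 in γ-H2AX alone. Some lay in protein-coding genes, which 42.2% of narrower peaks also touched, so this is not a trait of the regions alone. HMGA2 regions alone included Tmem263 (107), Col4a4, a basement membrane collagen (75.6), Gtf3c3, a subunit of a transcription factor of RNA polymerase III (59.7), and Dlg1, a scaffold of cell junctions (46.5). Those of γ-H2AX included Myo3a, a myosin of inner ear hair cells (90.3), Noct, which encodes nocturnin, a phosphatase under circadian control (69.2), Atp13a3 (65.2) and Atp6v0a2, a proton pump subunit (43.2). The γ-H2AX region at chr17:29104672-29105208 lay 3949 bp from Cdkn1a, the p21 inhibitor of cyclin-dependent kinases, at a score of 20.4, close to the threshold. Those of ATM included Zc3h7a (53.3, with a γ-H2AX peak of 40.3) and Dlgap2 (56.7). These genes were named after their values had been seen, apart from Myo3a and Zc3h7a.

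The share of narrower peaks touched by the authors' promoter lists was not computed, so the counts for wide regions are not read as few or many. Regions the authors gave for γ-H2AX promoters touched 4 of the 435 (0.920%, 0.358 to 2.34), and those for ATM promoters also 4. The first were A530032D15Rik, Hjurp, Noct and Gm40367, and the second A530032D15Rik, Sp140, Trpm8 and Pisd-ps1, so that A530032D15Rik was touched by both.

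Nearness to gaps could be described only through the peaks, because no genome sequence or gap table was used. Stretches of at least 100 kb without a peak of any list, which unsequenced or unmappable sequence would give, stood in for gaps. Of the 435 regions, 95 lay within 50 kb of such a stretch or of the first or last peak of a chromosome, 21.8% (18.2 to 26.0), against 0.533% of narrower peaks. Long stretches accounted for 76 of them and outermost peaks for 19. Besides the 650.6 kb at Erdr1, a stretch of 349.5 kb ended before the Dux array, with 6 wide regions near it. Stretches of 103.0 and 108.5 kb divided the chromosome 8 clusters, with 11 and 8 regions near them. One of 105.3 kb separated the chromosome 1 clusters of A530032D15Rik and Sp140, with 8. Stretches of at least 100 kb divide clusters by construction, since regions were joined only within 100 kb.

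At chromosome ends the lists differed in number. In the mouse assembly the centromeric end of each autosome starts with unsequenced bases, so that the first peak stands for the edge of the known sequence. Within 250 kb of the first peak there were 28 wide regions on 7 chromosomes, 6.44% of the regions against 0.189% of narrower peaks. Of these, 18 were wide in ATM, 8 in γ-H2AX and 4 in HMGA2, where the lists hold 184, 114 and 187 wide intervals. The 5 regions over Pisd-ps1 and Sfi1 on chromosome 11, all of ATM, and the region beside Gm3318 on chromosome 10 are among them. Part of the ATM count thus comes from 1 cluster. Within 250 kb of the last peak there were 20 on 5 chromosomes, 4.60% against 0.195%, with 8 wide in ATM, 7 in HMGA2 and 6 in γ-H2AX. Of these, 15 are the Y-chromosomal cluster.

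Genes of listed multicopy families lay within 50 kb of 124 wide regions, 28.5% (24.5 to 32.9), against 6.88% of narrower peaks. This total includes the 3 groups named below that were listed with earlier results of these data known. It is therefore not an independent comparison with narrower peaks. Zinc-finger genes were near 60 regions, 13.8% against 1.58%, and vomeronasal receptor genes, which encode pheromone receptors, near 49, 11.3% against 1.04%. Most of these regions are on chromosome 4, where receptor pseudogenes such as Vmn2r-ps16 and Vmn2r-ps19 lie among the zinc-finger genes. Keratin and cornified envelope genes were near 12 regions, all of them at Sprr2a, and the 4 listed genes of the Sp100 family near 8. Sfi1, listed as 1 gene, was near 5. For these 3 groups the regions are of 1 cluster each, and the groups were listed with earlier results of these data known, so their shares are not set against narrower peaks. Outside the clusters of 10 or more, 49 of 176 regions lay near a family gene, 27.8% (21.7 to 34.9). No region of the 5 largest clusters lay near one.

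Not every multicopy family was represented. None of the 435 regions lay within 50 kb of an olfactory receptor gene (an upper bound of 0.875%), while 1.22% of narrower peaks did and the annotation holds 1428 such genes. That bound treats regions as independent, but 361 of them lie in clusters, so the absence is not read as a depletion. There was also none near histone, defensin, major histocompatibility complex or immunoglobulin and T cell receptor genes, of which 0.160%, 0.0577%, 0.0577% and 0.275% of narrower peaks lay near. At those levels none or few of 435 regions would be near. Genes of the X or Y ampliconic families were near 5 regions, 1.15% (0.492 to 2.66) against 0.307%.

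Pseudogenes and predicted genes were touched more often than by ordinary peaks, and protein-coding genes less often. With the central 200 bp of each interval, a pseudogene was touched by 56 regions, 12.9% (10.0 to 16.4), against 1.05% of narrower peaks. A gene with a predicted or clone-based name was touched by 102, 23.4% (19.7 to 27.7), against 9.98%. A protein-coding gene was touched by 153, 35.2% (30.8 to 39.8), against 42.2%, and any gene by 210, 48.3% (43.6 to 53.0), against 50.2%, the last a difference within the counting error.

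Promoter sequence near wide regions had near-copies more often than elsewhere. A window was called copied when at least 50% of its 25-base words also occur in the window of another gene. Among the 226 RefSeq windows within 50 kb of a wide region 44 were copied, 19.5% (14.8 to 25.1), and among 47 windows inside clusters 18, 38.3% (25.8 to 52.6). Of the 32625 windows farther away, 4.19% were copied. Only 11 windows were touched by a wide region, 4 of them copied (36.4%, 15.2 to 64.6). Of the 127 genes touched by wide regions 77 have a window in the table, so the others could not be examined. The median AT content of the windows was 51.3% inside clusters, 49.7% within 50 kb and 47.3% farther away. The AT content of the wide regions themselves was not analysed here.

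Narrower peaks were also denser around wide regions, with the highest ratios for ATM. Within 5 kb of a wide region, narrower peaks numbered 8.04 per 100 kb for ATM, 1.72 times the mean of the list (4.67), 8.15 for HMGA2, 1.36 times (5.97), and 5.43 for γ-H2AX, 1.11 times (4.88). At 5 to 20 kb the ratios were 1.81, 1.34 and 1.30 in the same order. At 50 to 100 kb they were 1.23 for ATM, 1.07 for HMGA2 and 1.16 for γ-H2AX, and at 200 to 500 kb 1.04, 0.987 and 1.05. All 3 lists thus had ratios above 1 out to 200 kb. The ratio of HMGA2 fell at each step from 0 to 1000 kb, whereas those of ATM and γ-H2AX were highest at 5 to 20 kb, and that of γ-H2AX within 5 kb was below its values out to 200 kb. Wide intervals themselves were left out of these counts.

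**Figure D5:**
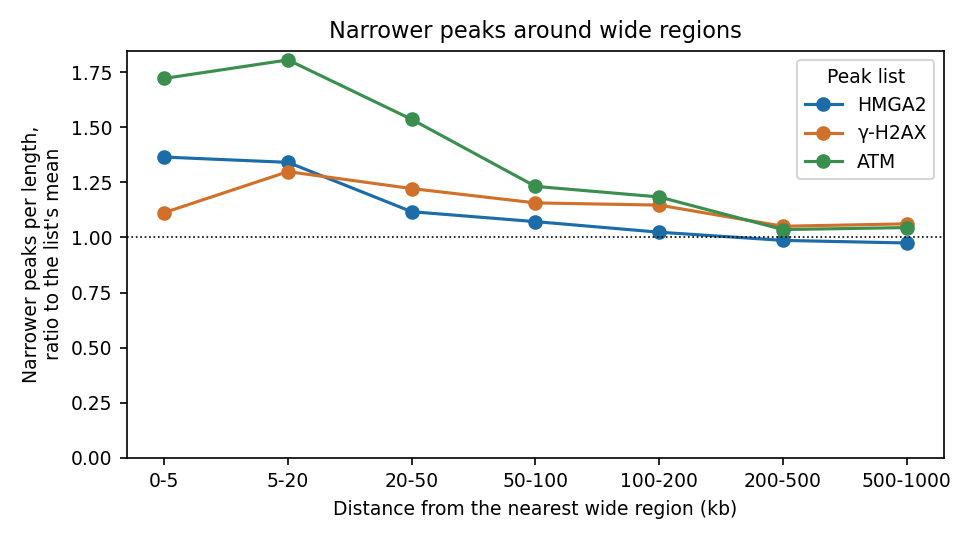
Narrower peaks per length, as a ratio to the mean of the list (dotted line at 1), by distance from the nearest wide region in kb, for the 3 lists. ATM is highest within 20 kb (1.72 and 1.81), and all lists lie between 0.975 and 1.06 beyond 200 kb.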

How the data were processed

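Of the 8 libraries of the series, 3 were used. Peak calling by the authors was with MACS14, library by library, with its model switched off, a p of 0.01 as the limit and reads shifted by 30 bp, per the labels. Trimmomatic, Bowtie2, SAMtools, HOMER and the mm10 build are named, without versions, in the submitters' processing notes. The control library of the calls and the treatment of reads with several matches are not given in the sources used here, and the depth of the libraries is not known from the lists. The score of each deposited peak is -10 log10 p, as computed by the authors. The deposited promoter lists hold a start and end with no measured value. A deposited coverage histogram and 2 plotting configurations were not used.

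The members, gene families and tests were chosen with earlier results of these data known. Regions are named by a rule: those wide in 2 or more lists, the 5 widest and 5 highest of each list, the 3 nearest the threshold on either side, and the 5 clusters with most members. Other clusters and single genes were named after their values were seen, as a description. Overlaps were of at least 1 bp. A family gene was one of 4865 genes in 25 groups, found by symbol in RefSeq's gene table of GRCm38.p6 (49997 genes, given without exons, introns or UTRs). Python 3.11.15, pandas 2.3.3, numpy 2.4.6, scipy 1.17.1 and Biopython 1.88 were used. The overlap code was tested on simulated lists and gave the same counts of regions touched as bedtools 2.31.1 (207, 141 and 214 by HMGA2, γ-H2AX and ATM peaks). Alternatives were other widths, a score of at least 50, other distances and overlaps, and, added after seeing the data, leaving out each list or the 5 largest clusters.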

Additional observations from a re-analysis of the deposited data

How the results depend on the processing

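Of 63 values under alternatives, 37 moved by less than their interval (for numbers of regions, by less than 1.5 times) and 26 by more. No paired analysis was possible because each antibody had 1 library and no result came from a test. The number of wide regions was 924 over 400 bp, 81 over 1000 bp and 94 with scores of 50 or more, and 270 without wide HMGA2 intervals or 287 without those of ATM. The share with a peak of at least 2 lists was 19.1% over 400 bp, 5.32% at scores of 50 or more (5 of 94, with fewer peaks to meet), 30.6% with intervals within 1000 bp merged, 14.3% with an overlap of at least 50% of the region and 31.9% without wide HMGA2 intervals. The share wide in at least 2 lists was 4.26% at scores of 50 or more, 3.92% without wide γ-H2AX intervals and 4.88% without those of ATM, which leave only 2 lists to share. The share in clusters was 63.0% over 400 bp, 52.1% at scores of 50 or more, 68.0% for neighbours within 10 kb, 86.9% within 1 Mb, 77.0% without wide ATM intervals and 75.5% without the 5 largest clusters. Nearness to a stretch or outermost peak was 14.6% over 400 bp, 29.6% over 1000 bp, 18.1% at scores of 50 or more, 11.03% for stretches of at least 200 kb (narrower peaks 0.198%) and 5.75% within 10 kb (0.221%). Nearness to a family gene was 18.2% within 10 kb (narrower peaks 3.65%) and 41.1% without the 5 largest clusters. The last share rests on the same 124 regions, now of 302, because no region of those clusters lay near a listed family gene. No share of narrower peaks at scores of 50 or more was computed, so whether wide regions of that height are shared more than narrower peaks was not tested. Where an alternative changes the number of regions or lists by its construction, the shares change with it, and other causes were not tested. Without input or replicates, depth and background set a limit that cannot be given as a number.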
